A study of Mus musculus domesticus with 18 samples.

Results

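Naxd and 9 other genes of nicotinamide adenine dinucleotide (NAD) metabolism, namely Nampt, Nmnat1, Nadk, Nadsyn1, Qprt, Nnt, Nnmt, Sirt1 and Sirt3, were followed in the livers of wild house mice from high and low altitude. All probe sets whose annotation named just 1 of these symbols were taken, which gave 17 probe sets for the 10 genes, out of 45037 probe sets and 18193 named genes. Of the members, 5 had 1 probe set, 3 had 2 and 2 had 3. Naxd was chosen by its altitude difference in these same arrays, so its altitude values are given as a description with no test. The other members were named for their roles in NAD metabolism, with results of these data known.

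The study trapped 18 wild male Mus musculus domesticus, 9 at high altitude (La Paz, Bolivia, 3600 m) and 9 at low altitude (Lima, Peru, 100 m). Mice of each altitude came from 3 places, location A, location B and location C, with 3 mice per place and 1 Affymetrix array per liver. The mice were untreated as far as the labels say, their ages are not stated there, and the labels also carry the laboratory strain name C57BL/6J, although the title and source text describe wild mice. Altitude, city and mouse population coincide in this design and cannot be told apart.

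NAD and its phosphorylated form NADP carry electrons between the enzymes of metabolism, and NAD is also consumed by sirtuins and ADP-ribosyl transferases, which release nicotinamide. Liver is a main site where NAD is made from tryptophan by the de novo route. Most NAD is rebuilt from nicotinamide by the salvage route, whose rate-limiting enzyme is Nampt. NADH and NADPH can take up water at the nicotinamide ring and become useless hydrates. Naxd, an ATP-dependent dehydratase, turns these hydrates back into NADH and NADPH, and its partner Naxe, an epimerase, converts the one hydrate form into the other so that Naxd can use it.

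Levels are deposited log2 values from robust multi-array averaging (RMA), so a difference of 1 is a 2-fold change. A call is an adjusted p under 0.05 from limma, a linear model with shrunken variances, adjusted over all 45037 probe sets by the Benjamini-Hochberg method. The number of arrays limits the precision, with a median standard error (SE) of 0.0819 for an altitude difference. Pairs of arrays correlated at 0.976 to 0.994. Of 10 hepatocyte markers, 9 averaged 12.82 to 14.82, and Ass1 averaged 6.86. The Actb 3 prime minus 5 prime difference, a sign of RNA integrity, was 1.40 ± 0.32 in the high and 1.22 ± 0.17 in the low group (SD, n = 9 each). Between altitudes, marker genes of B and plasma cells averaged 5.95 to 6.87 per mouse at high and 5.40 to 5.88 at low altitude. Of 6 measured, Jchain and Ighm were called higher, with differences of 2.34 and 2.05. The others were not called and differed by 0.29 (Cd22), 0.06 (Cd79a), -0.12 (Cd79b) and -0.15 (Ms4a1). Of 45 measured markers of the other cell types, limma called 0 between altitudes, with 6 at an unadjusted p under 0.05. Of the member probe sets, 16 of 17 lay above the median level of all probe sets, 5.31, and the exception was the dimmest Nnt probe set. Probe sets of 9 genes of other organs averaged 2.90 to 8.22, with median 3.99. Only 11 of the 17 member probe sets lay above the highest of these, for Prm1. Those below it were the dimmest Nampt and Nnt probe sets, both of Nmnat1, and those of Nadsyn1 and Sirt1. Values of different probe sets do not compare directly, so this ranking does not show whether a gene was expressed. In whole liver, fewer cells of a type and less RNA per cell cannot be told apart.

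Naxd, measured by 1 probe set, was lower in every high altitude mouse than in any low altitude mouse. In high location A the 3 mice lay at 8.16, 8.18 and 8.61, in B at 8.13, 8.25 and 8.10, and in C at 8.46, 8.26 and 8.25. At low altitude the location A mice lay at 9.53, 9.93 and 9.84, those of B at 9.04, 9.23 and 9.001, and those of C at 9.18, 9.16 and 9.69. The highest high altitude mouse and the lowest low altitude mouse were 0.39 apart on the log2 scale. Group means were 8.27 ± 0.17 and 9.40 ± 0.35 (SD, n = 9 each), a log2 difference of -1.13 ± 0.13 (SE), or 2.19-fold lower at high altitude. The mice of the 2 altitudes did not overlap for 0.0822% of all probe sets, a property close to what chose Naxd and therefore no further evidence. Leaving out single mice gave differences from -1.18 to -1.07, and leaving out whole locations gave -1.29 to -0.95. Naxd has only 1 single-gene probe set on this array, so no second probe set bears on its level. The probes were designed on reference sequence, and for mice of other populations a sequence difference under a probe and a difference in transcript level cannot be told apart from these values.

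**Figure D1:**
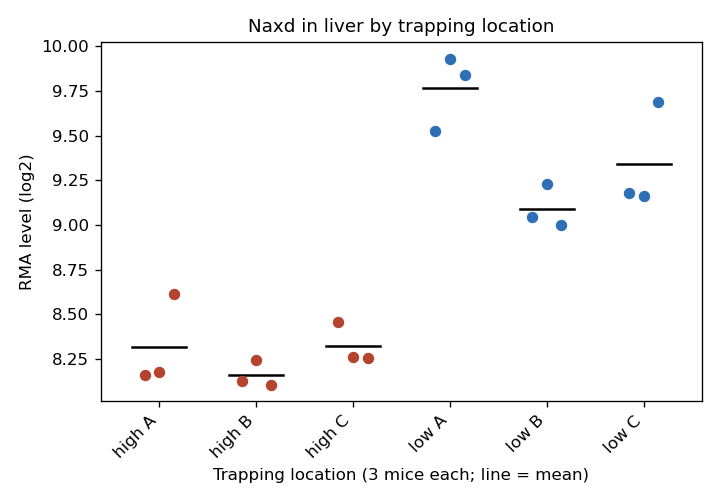
RMA level (log2) of Naxd in each mouse, by trapping location, with high altitude in red, low altitude in blue and a line at each location mean (n = 3 mice). All 9 high altitude mice lie at or below 8.61 and all 9 low altitude mice at or above 9.001, and low location A has the highest mean, 9.77.

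The comparison of locations within an altitude was not itself used to choose Naxd. A choice by altitude difference can still favour a gene of small spread within an altitude. At high altitude its location means were 8.32, 8.16 and 8.33 in A, B and C, a range of 0.17. At low altitude they were 9.77 ± 0.21, 9.09 ± 0.12 and 9.34 ± 0.30 (SD, n = 3 each), a range of 0.68. The 3 low A mice all lay above the 3 low B mice, while low C3 at 9.69 lay among the mice of A. By limma's moderated F test the low locations had an unadjusted p of 0.00299 and an adjusted p of 0.432, so the difference was not called, and the high locations had an adjusted p of 0.956. Over the alternatives that refitted the low locations, the adjusted p of Naxd ran from 0.282 to 0.948. Whether the spread of location means differed between altitudes was not tested.

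Naxe, the partner of Naxd in the same repair step, averaged 9.74 ± 0.23 at high against 9.79 ± 0.15 at low altitude (SD, n = 9 each). Its log2 difference was -0.06 ± 0.09 (SE) with a 95% interval from -0.25 to 0.14 and an adjusted p of 0.913 by limma. The protein-coding genes lying next to Naxd in the RefSeq order, 4 on each side, had differences from -0.16 to 0.18. Of these 8, limma called 0, with 0 at an unadjusted p under 0.05 (lowest adjusted p = 0.524).

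Nampt, which makes nicotinamide mononucleotide from nicotinamide, rose at high altitude by its brightest probe set, the 1 call among the 9 members tested. In that probe set the high altitude mice had a lowest level of 9.21, a median of 9.51 and a highest of 9.83. The low altitude mice had 8.77, 8.87 and 9.68. Low B2, at 9.68, was the 1 low altitude mouse inside the high altitude range, and the next highest low mouse lay at 9.03. Group means were 9.53 ± 0.23 and 8.97 ± 0.28 (SD, n = 9 each), and each of the 9 high altitude values exceeded the low mean. The difference of 0.56 ± 0.12 (SE), or 1.48-fold, had a 95% interval from 0.32 to 0.81 and an adjusted p of 0.0412 by limma.

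The other Nampt probe sets pointed the same way without a call. The second brightest averaged 8.61 ± 0.29 at high against 7.95 ± 0.41 at low altitude (SD, n = 9 each), a difference of 0.66 ± 0.16 (SE) with an adjusted p of 0.0819 by limma. The dimmest averaged 5.87 ± 0.31 and 5.44 ± 0.32 (SD, n = 9 each), a difference of 0.43 ± 0.14 (SE) with an adjusted p of 0.212 by limma. Low B2 was again the highest low altitude mouse in both, at 8.70 and 5.82. After the location means were removed, the 3 probe sets correlated over the 18 mice at 0.88, 0.69 and 0.81, which describes probe sets measured on the same arrays. For each of them the 3 high location means lay above the 3 low ones.

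**Figure D2:**
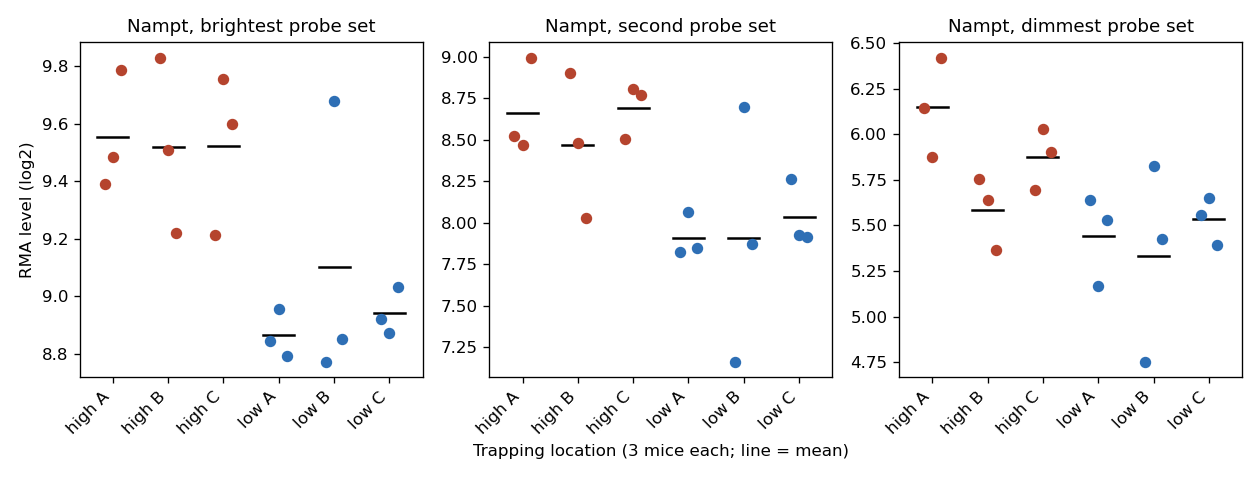
RMA level (log2) of the 3 Nampt probe sets in each mouse by trapping location, with high altitude in red, low altitude in blue and a line at each location mean (n = 3 mice), each panel on its own scale. Low B2 is the highest low altitude mouse in each panel, at 9.68, 8.70 and 5.82. It is the only low altitude mouse inside the high altitude range for the brightest probe set, while other low altitude mice also lie inside it in the other panels.

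The Nampt call was close to the threshold. It held in 11 of 35 alternatives, with the difference between 0.51 and 0.65 throughout, and was lost in 14 of 18 fits without 1 mouse and in 5 of 6 without 1 location. Of the 11 that kept it, 6 used all mice, and the others left out high A1, high B3, high C1, low B2 or the whole of location low B. The second brightest Nampt probe set was also called without high B3, without low B2 and with arrays weighted by quality. With low B2 left out the difference was 0.65 with an adjusted p of 0.00626 by limma, and with 1 mean per location the adjusted p was 0.206. Immune marker levels in the same mice were as follows. Of 6 neutrophil markers 3 differences were positive and 3 negative, with 0 called by limma and 0 at an unadjusted p under 0.05. The neutrophil mean per mouse ran from 5.83 to 6.46 at high and from 5.63 to 6.48 at low altitude, with low B2 at 6.13. All 8 Kupffer cell and macrophage markers had positive differences, with 0 called by limma and 2 at an unadjusted p under 0.05. Their mean per mouse ran from 8.94 to 10.32 at high and from 8.84 to 9.87 at low altitude, with low B2 at 9.83. Means of 6 T and NK cell markers, 5 of them with positive differences, 0 called by limma and 4 at an unadjusted p under 0.05, ran from 5.83 to 6.97 and from 5.47 to 6.15, with low B2 the highest low altitude mouse. Of the 6 B and plasma cell markers described above, 2 were called, and there low B2 had a mean of 5.52, within the low altitude range, and the lowest Jchain level of the low altitude mice, 5.54. The hepatocyte markers of low B2 had the lowest mean of all mice, 13.14, but were not uniformly low. Low B2 was the lowest low altitude mouse for Fgb (11.70), Tat (12.14) and Serpina1c (14.44). It was the highest for Ttr (14.54) and Apoa2 (14.89), and the other markers lay between. The part of these cells and of RNA integrity in the Nampt difference was not tested beyond a covariate for the Actb measure, which left a difference of 0.54 and an adjusted p of 0.0552 by limma.

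Of the 9 members tested, only Nampt was called between altitudes. Over the 16 probe sets of the 9 members other than Naxd, 1 was called by limma, against 0.298% of all probe sets (134 called, 4533 at an unadjusted p under 0.05). The differences split into 8 positive and 8 negative, with median -0.02, against -0.00043 over all probe sets. Leaving out Naxd, the 3 location means of one altitude lay apart from those of the other for 5 of the 16 probe sets, against 13.6% of all probe sets. Of these 5, 3 belonged to the single gene Nampt, and the others were the brighter Nadk and the dimmest Nnt probe set.

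**Figure D3:**
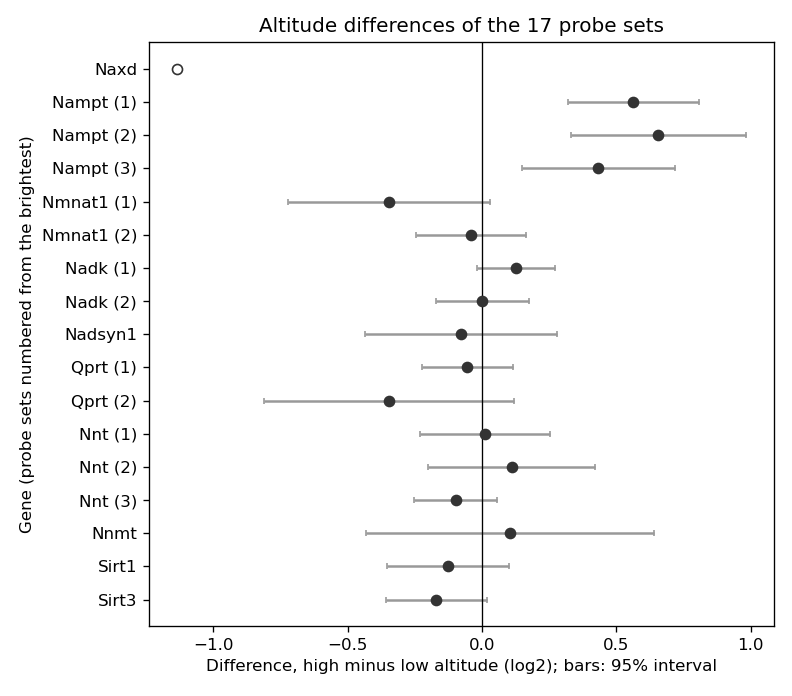
Altitude difference (high minus low, log2) of each of the 17 probe sets, numbered from the brightest within a gene, with 95% intervals from limma except for Naxd, whose open circle at -1.13 is a description of the value that chose it. The 3 Nampt probe sets lie between 0.43 and 0.66, and the intervals of the 13 probe sets of the remaining members include 0.

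Among the enzymes of the de novo route, Qprt, which turns quinolinate into nicotinate mononucleotide, averaged 10.76 ± 0.19 at high against 10.82 ± 0.13 at low altitude by its brighter probe set (SD, n = 9 each). The difference was -0.06 with a 95% interval from -0.22 to 0.11 and an adjusted p of 0.893 by limma. Its dimmer probe set gave -0.35 with an interval from -0.81 to 0.12, and its high altitude mice spread from 7.30 to 9.39. Nadsyn1, which adds the amide group in the last step of that route, averaged 7.40 ± 0.49 and 7.48 ± 0.27 (SD, n = 9 each). Its difference of -0.08 had an interval from -0.43 to 0.28, so changes of either sign up to that size remain within the error.

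Nmnat1, the nuclear enzyme that joins the mononucleotide to ATP to form the dinucleotide, averaged 7.49 ± 0.42 at high against 7.83 ± 0.41 at low altitude by its brighter probe set (SD, n = 9 each). Its difference was -0.35 ± 0.18 (SE), with an adjusted p of 0.543 by limma, and the groups overlapped, with low B mice alone spanning 7.13 to 8.54. The suffix _s_at of that probe set marks probes shared by more than 1 transcript. The other Nmnat1 probe set gave -0.04 with an interval from -0.25 to 0.16.

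Nadk, the cytosolic kinase that makes NADP from NAD, averaged 11.44 ± 0.15 at high against 11.31 ± 0.10 at low altitude by its brighter probe set (SD, n = 9 each). That difference of 0.13 had an interval from -0.02 to 0.27 and an adjusted p of 0.576 by limma, and 8 of 9 high altitude values exceeded the low mean. The second Nadk probe set gave 0.00 with an interval from -0.17 to 0.17. Within locations the 2 Nadk probe sets correlated at 0.38.

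Nnt, the transhydrogenase of the inner mitochondrial membrane, uses the proton gradient to pass electrons from NADH to NADP. Laboratory C57BL/6J mice are known for a deletion within Nnt. Where the probes lie relative to it was not examined here, so the level is no check of the strain label. The brightest Nnt probe set averaged 10.69 ± 0.19 at high against 10.68 ± 0.31 at low altitude (SD, n = 9 each), a difference of 0.01 with an interval from -0.23 to 0.25. The second gave 0.11, from -0.20 to 0.42. The dimmest, at a mean of 4.90, did not follow the other Nnt probe sets within locations, with correlations of 0.02 and -0.01, and gave -0.10. Low location A had the highest mean of the 6 locations by both bright probe sets, 10.92 and 10.74, and low B the lowest, 10.43 and 10.13. The low locations had unadjusted p of 0.039 and 0.0424 and adjusted p of 0.765 and 0.778 by limma's moderated F test.

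Nnmt, which methylates nicotinamide and so removes it from salvage, was the most variable member by its brightest probe set. High altitude mice had a lowest level of 10.73, a median of 12.51 and a highest of 13.01, and low altitude mice had 11.28, 12.24 and 12.77. The lowest mouse at each altitude was mouse 2 of location B. The difference was 0.10 ± 0.26 (SE), with an interval from -0.43 to 0.64 and an adjusted p of 0.944 by limma.

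The sirtuins, deacylases that consume NAD, gave small negative differences. Sirt1, a nuclear deacetylase, averaged 6.56 ± 0.28 at high against 6.69 ± 0.18 at low altitude (SD, n = 9 each), a difference of -0.13 with an interval from -0.35 to 0.10. Sirt3, the main mitochondrial deacetylase, averaged 8.40 ± 0.18 and 8.57 ± 0.19 (SD, n = 9 each), and 7 of 9 high altitude mice lay below the low mean. Its difference of -0.17 had an interval from -0.36 to 0.02 and an adjusted p of 0.561 by limma.

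Between locations of the same altitude, limma's moderated F test called 0 of the 17 probe sets at either altitude. Across all probe sets it called 0.167% (75) at high and 0.0622% (28) at low altitude. At an unadjusted p under 0.05 it had 0 member probe sets at high and 3 at low altitude, namely Naxd and the 2 bright Nnt probe sets. The lowest adjusted p among members was 0.633 at high and 0.432 at low altitude. With 3 mice per location, the range of 0.68 between low location means of Naxd did not pass after adjustment.

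Other genes of the pathway were taken from lists drawn up with results of these data known. Of 62 listed genes 56 were measured by single-gene probe sets, 118 in all. By limma 0 of the 118 were called. The lowest adjusted p was 0.0978, for the dimmer of the probe sets of Aldh1l1, a folate dehydrogenase that produces NADPH, named after its values were seen. That probe set differed by 0.55 and the brighter one by 0.13, and among the genes' brightest probe sets the lowest adjusted p was 0.123. The differences split into 30 positive and 26 negative, with median 0.02. At an unadjusted p under 0.05 lay 7 genes, or 12.5%, against 11.5% of all genes. Acmsd, Cd38 and G6pdx were not analysed here.

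Among 7 measured genes leading from tryptophan to quinolinate, 4 differences were positive and 3 negative. Tdo2, the dioxygenase that opens the tryptophan ring in liver, averaged 13.62 ± 0.17 at high against 13.70 ± 0.11 at low altitude (SD, n = 9 each). Its difference was -0.07, that of Haao also -0.07, that of Kmo 0.07 and that of Kynu 0.01. Afmid, the formamidase that follows Tdo2, gave 0.53 ± 0.36 (SE, adjusted p = 0.674 by limma), with high altitude mice from 7.76 to 10.45. Ido2, named after its values were seen, gave 0.57 ± 0.19 (SE), with the lowest adjusted p of that list, 0.251 by limma. Among 7 salvage and Preiss-Handler genes 3 were positive and 4 negative. Naprt, which starts the route from nicotinic acid, differed by 0.01, the riboside kinase gene Nmrk1 by -0.11, Nmnat2 by -0.09 and the mitochondrial Nmnat3 by -0.17. Nt5e, the ecto-enzyme that removes phosphate from extracellular nucleotides, was named after its values were seen. It averaged 8.30 ± 0.87 at high against 6.80 ± 1.05 at low altitude (SD, n = 9 each), a difference of 1.498 ± 0.40 (SE) with an adjusted p of 0.125 by limma, and its other probe sets gave 0.52 and 0.05.

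By their brightest probe sets the NAD kinase and hydrolase genes had 3 of 3 negative differences (lowest adjusted p = 0.597 by limma). Nadk2, the mitochondrial kinase, lay at -0.24 and Nudt12, which cleaves NADH, at -0.18. The other Nadk2 probe sets gave -0.37, -0.40 and -0.53, with adjusted p of 0.533, 0.198 and 0.286 by limma. Of 5 further sirtuins 4 were negative, with Sirt2 at -0.07, Sirt6 at -0.03 and the exception Sirt5, the mitochondrial desuccinylase, at 0.27 (lowest adjusted p = 0.61). Of 11 ADP-ribosyl transferase and cyclase genes 9 were positive, with a median of 0.12. Parp1, the main responder to DNA breaks, differed by -0.01 and Parp14 by 0.25, and the lowest adjusted p in that list was 0.184. Of 5 genes for nicotinamide oxidation and NAD carriers 4 were positive, with the aldehyde oxidases Aox1 at 0.11 and Aox3 at 0.42. Slc25a51, the carrier that brings NAD into mitochondria, was named after its values were seen. It averaged 10.37 ± 0.43 at high against 9.67 ± 0.44 at low altitude (SD, n = 9 each), a difference of 0.70 ± 0.19 (SE) with an adjusted p of 0.123 by limma, while its other probe sets gave -0.16 and 0.34. Among 8 dehydrogenases that produce NADPH 5 were positive, with the isocitrate dehydrogenase gene Idh1 at 0.09 and the malic enzyme gene Me1 at -0.05. Of 9 genes of the shuttles that carry NADH electrons into mitochondria 4 were positive and 5 negative (median -0.08). Of these, Gpd1 was named after its values were seen. Its brightest probe set gave -0.32 (adjusted p = 0.547 by limma) and the second brightest -0.68 (adjusted p = 0.13 by limma). The other Gpd1 probe sets gave -0.24 and -0.09.

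**Figure D4:**
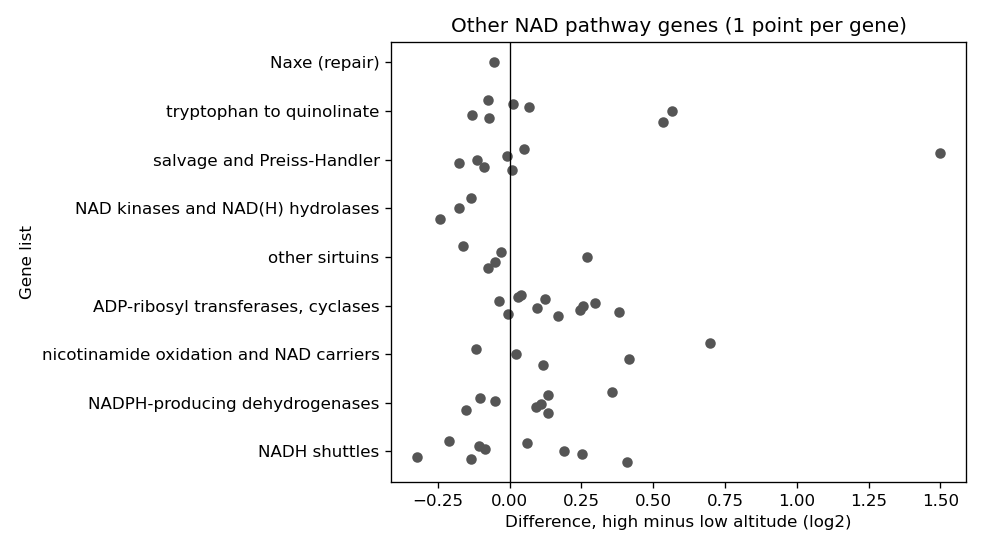
Altitude difference (high minus low, log2) of each of the 56 other pathway genes, 1 point per gene by its brightest probe set, in rows by gene list. Most points lie near 0, Nt5e is the point at 1.498, and 0 of the genes were called.

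Among mice of the same location the members showed no shared variation that passed a test. Deviations from location means were correlated for the 45 pairs of members over 18 mice, with exact permutation of mice within locations. Of these pairs 0 passed after adjustment (lowest adjusted p = 0.461 by permutation), and 3 had an unadjusted p under 0.05. The strongest of those 3 was Nadk with Nadsyn1, with Pearson r = -0.73 and Spearman rho = -0.68 (exact permutation p = 0.0137 and 0.0178), and r = -0.62 without high C1 and C3. The genes whose deviations followed Naxd most closely were 2310010J17Rik (r = 0.86), Nubpl, a mitochondrial iron-sulfur protein gene (0.85), Gm26911 (0.84), Tnik (0.84) and Rnf128 (0.84), over 18 mice on shared arrays and picked as the highest of all genes. Their own altitude differences lay between -0.20 and 0.13, and limma called 0 of the 5, with 0 at an unadjusted p under 0.05 (lowest adjusted p = 0.57).

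Nampt transcription is known to be driven by the circadian clock, and the labels used here do not state when livers were taken. Nampt was compared with 14 clock genes within locations. Arntl, a core clock activator, stood in separate clusters: 4 mice, high A4, high B1, low B2 and low C3, lay between 6.62 and 6.95, and the other 14 between 7.56 and 8.76. In all 4 of the former Nampt lay above its location mean, by 0.23, 0.31, 0.58 and 0.09. Over all 18 mice r was -0.71 (rho = -0.68, exact permutation p = 0.00339, adjusted p = 0.0474 over 14 genes, and 0.0615 for rho), and r was -0.59 without low B2 and high B1. Without the 4 mice the correlation was weaker. Among the other 14, centred again on their own location means, r was -0.12 and rho was -0.13 (exact permutation p = 0.543 and 0.655). The value without low B2 and high B1 kept the deviations from means of all 18 mice, so these leave-outs are not on the same basis. Clock, the partner of Arntl, had a larger correlation with Nampt over the 18 mice, r = -0.76 (rho = -0.60), with an exact permutation p of 0.0365 that missed the threshold once adjusted (0.106), and r was -0.63 without low B2 and high B1. Besides Arntl, the 13 clock genes had adjusted p from 0.0726 for Tef to 0.855 by the same permutations. Arntl itself differed between altitudes by 0.26 ± 0.31 (SE, adjusted p = 0.859 by limma). Of the 14 clock genes 5 altitude differences were positive and 9 negative, and limma called 0. At an unadjusted p under 0.05 lay 2, Hlf (-0.40) and Nr1d1 (-0.43), with adjusted p of 0.19 and 0.406 by limma. The largest difference was that of Dbp, -1.39 ± 0.75 (SE, adjusted p = 0.564 by limma). The part of sampling time in the Nampt difference was not tested.

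**Figure D5:**
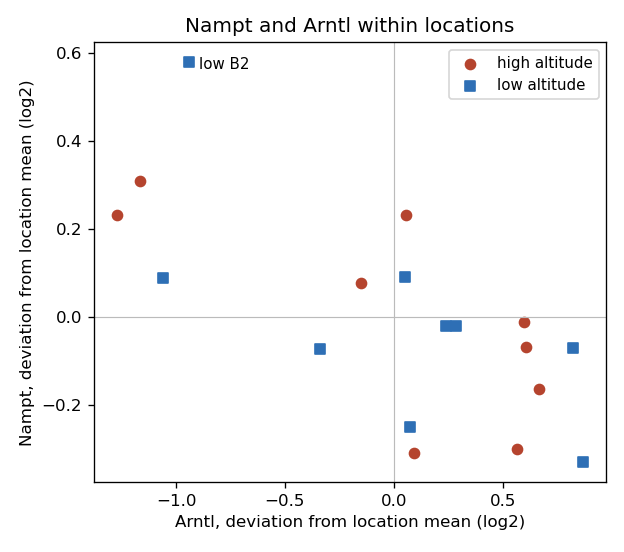
Deviation of Nampt from its location mean against that of Arntl (both log2), 1 point per mouse, red circles for high and blue squares for low altitude. The mouse low B2 has the highest Nampt deviation, 0.58, at an Arntl deviation of -0.94, and the mice of lowest Arntl level lie to the left with positive Nampt deviations.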

How the data were processed

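Values for 45101 probe sets on 18 liver arrays were deposited in log2 units, made by the authors with RMA and the package affy, per the submitters' processing notes, which carry no versions. This method corrects background, normalizes arrays by quantiles and summarises probes, which compresses dim probe sets, so values compare within a probe set only. The 64 control probe sets were left out. GEO's platform annotation gave 1 symbol to 34945 probe sets, several to 932 and none to 9160.

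With limma 3.58.1 in R 4.3.3, altitude was fitted on all 45037 probe sets with location as a random block (consensus correlation -0.00189), and locations by moderated F tests on 6 location means, with a mean-variance trend and two-sided tests. No filter on dim probe sets was used. A gene was represented by its brightest probe set. Members, lists and the rule for named genes (all members, a fixed pathway panel, called list genes, and the 5 genes most like Naxd) were chosen with earlier results of these data known. The procedure was tested on simulated data. Alternatives covered normalization, centring, blocks, weights, level filters, RNA integrity, thresholds, and leaving out mice or locations.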

Additional observations from a re-analysis of the deposited data

Results flagged for a closer look

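In each of 34 groups (17 probe sets at 2 altitudes, 9 mice each) the most extreme mouse was compared with its nearest neighbour, and 2 stood further off than Dixon's critical value. By chance a share of about 0.05 of such groups would. In the brightest Nampt probe set, low B2 lay at 9.679 with the next low altitude mouse at 9.032, a gap of 0.713 of the group's range. In the Nnmt probe set, high B2 lay at 10.73 with the next high altitude mouse at 11.91, a gap of 0.516 of the range.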

How the results depend on the processing

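The 3 Nampt probe sets kept the sign of their altitude difference in every alternative run. The Nampt call was lost with quantile normalization repeated (adjusted p = 0.0638), median centring (0.0507), the RNA integrity covariate (0.0552), 1 mean per location (0.206) and mouse number as a replicate block (0.1), and over single mice left out its adjusted p ran from 0.00626 to 0.11. Same-numbered mice did not deviate together (mean correlation -0.013, against 0.00566 for different numbers), so the numbers give no pairing, and with that block the altitude calls over all probe sets fell from 134 to 64. Those calls numbered 66 with 1 probe set per gene, 0 with 1 mean per location, 269 with array weights, 223 centred on bright probe sets, 205 with the RNA integrity covariate, 321 at an adjusted p under 0.1 and 26 under 0.01. They numbered 82, 227, 78 and 39 without high A, high B, low B and low C, and 49 (without low B3) to 163 without single mice, with 83 without low A2 and 79 without low C2. Calls among the 9 members other than Naxd numbered 0 or 2 wherever they moved from 1, with 2 under array weights, under an adjusted p of 0.1 and without high B3 or low B2. Without single mice the calls between high locations ran from 31 (without high B3) to 104, with 40, 46 and 48 without high A1, C1 and C3. Those between low locations ran from 13 (without low A3) to 62 (without low B2), with 14, 17 and 43 without low A2, B3 and C2, and numbered 13 with 1 probe set per gene.

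Alternatives for correlations and outlying mice were chosen after seeing the data. The count of clock genes correlated with Nampt went from 1 to 0 with Spearman's rho (lowest adjusted p = 0.0615), repeated quantile normalization or the second Nampt probe set, and ran from 0 to 5 without single mice. The count of outlying mice was 4 after repeated quantile normalization and 1 for deviations from location means. The number of arrays limits all these values.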
